A study of Homo sapiens with 9 samples.

Results

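The immunoglobulin heavy chain (IGH), kappa light chain (IGK) and lambda light chain (IGL) segments were examined together with JCHAIN and MZB1, whose products take part in antibody assembly. A transcript cluster, the array's unit for a gene, was a member if it carried exactly 1 gene symbol and that symbol named a variable (V), diversity (D), joining (J) or constant (C) segment of these loci, or JCHAIN or MZB1. This held for 122 of 70523 clusters, each with a symbol of its own, and none was left out for a low value. The members comprised 52 clusters of IGH on chromosome 14, 39 of IGK on chromosome 2, 26 of IGL on chromosome 22, 3 orphons (V segments displaced to chromosomes 16 and 21) and the 2 assembly genes. All 39 IGK members were V segments, since IGKC lay only in a cluster shared by several genes. IGLL5, which the rule also allows, had no cluster with exactly 1 gene symbol and so is not among the members.

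An antibody is built from heavy and light chains, and in each developing B cell a V, a J and, for the heavy chain, a D segment are joined by recombination and spliced to a constant region. A plasma cell clone therefore transcribes mainly its own rearranged heavy chain and light chain loci, at very high rates, while most other segments remain in their germline arrangement. The J chain links IgA and IgM units into polymers, and MZB1, a protein of the endoplasmic reticulum (ER), helps heavy and light chains to fold and assemble.

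The cells were MM.1S, an established human multiple myeloma line, which is a single tumour clone of plasma cells that makes lambda light chains. They were treated for 24 h with 5 nM HL13, with 5 nM LBH589 (panobinostat, a histone deacetylase inhibitor), both dissolved in DMSO, or with DMSO as the control, and 3 arrays were run per group. The labels name HL13 only by its code. Arrays of a group are labelled as biological replicates with no word on separate cultures, so a p-value reflects the spread among these arrays, part of which may be technical.

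Array medians lay between 5.33 and 5.38 on the log2 scale, arrays of a group correlated at 0.996 or above, and no array stood apart. Of 8 plasma cell markers 7 lay above the array median on all 9 arrays. The mean log2 level of those 8 genes was 8.19 to 8.24 on HL13 arrays, 8.11 to 8.14 on LBH589 arrays and 9.55 to 9.58 on DMSO arrays. With each compound 6 of the 8 (75.0%) were lower and 1 higher at an adjusted p of 0.05 (limma). Among clusters with 1 symbol 19.1% were lower after HL13 and 17.0% after LBH589. The 8 differences ran from -4.49 to 1.43 after HL13 and from -4.56 to 0.65 after LBH589. Of 5 measured B cell markers 4 lay above the median on all 9 arrays and 1 on none. Of 6 T cell markers, CD3D, CD3G and CD2 lay below the median on every array and CD3E, CD247 and LCK above it on every array, and the mean over the 6 was 4.78 to 4.89 on all arrays. Because the values come from bulk cells, fewer cells of a state and less RNA per cell cannot be told apart. Levels are compared only between groups within a cluster, since probes of different clusters differ in brightness. Probes of near-identical V segments, or of near-identical constant regions, can bind RNA of several of them. The symbol of a V or C cluster is therefore less certain than that of JCHAIN or MZB1.

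After HL13, 24 members fell, 8 rose and 90 did not pass an adjusted p of 0.05 (limma over all 70523 clusters, Benjamini-Hochberg). Among all clusters 12.9% were lower and 13.7% higher, and among the 23781 clusters with exactly 1 symbol 19.1% were lower and 20.5% higher. The members' share was thus near the background for falls (19.7%) and smaller for rises (6.56%). After LBH589, 17 members fell (13.9%) and 5 rose (4.10%). The background in that comparison was 11.3% lower and 11.2% higher over all clusters, and 17.0% lower and 18.2% higher over clusters with 1 symbol. The median log2 difference from DMSO was -0.065 for the members after HL13 and -0.026 after LBH589, against -0.009 and 0.005 over all clusters. Both comparisons share the DMSO arrays.

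The loci differed in direction in these counts, and the difference between loci itself was not tested. In IGL, 9 of 26 members fell and 0 rose after HL13, while 12 fell and 1 rose after LBH589. In IGH, 13 of 52 fell and 3 rose after HL13, and 3 fell and 2 rose after LBH589. In IGK, 0 of 39 fell with either compound at an adjusted p of 0.05, and 5 rose after HL13 and 2 after LBH589. At an unadjusted p under 0.05, 6 IGK members passed in either direction after HL13 and 4 after LBH589. The IGL falls numbered 8 to 10 after HL13 and 9 to 13 after LBH589 when single arrays were left out. The IGH falls after HL13 dropped to 7 without DMSO replicate 3 or HL13 replicate 1 and to 6 without HL13 replicate 3. The IGK rises after HL13 dropped to 3 without DMSO replicate 1 or HL13 replicate 3, with the replicate block and with a filter on dim clusters, and 1 IGK member fell without DMSO replicate 1. The IGK rises after LBH589 dropped to 0 without DMSO replicate 3 and with the replicate block, to 1 without DMSO replicate 1 or 2 or LBH589 replicate 1 or 2, and reached 3 without LBH589 replicate 3. The IGH rises after LBH589 dropped to 0 without LBH589 replicate 3 and to 1 without DMSO replicate 2 or 3. None of the 3 orphons passed the threshold. JCHAIN and MZB1 both fell with both compounds.

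**Figure D1:**
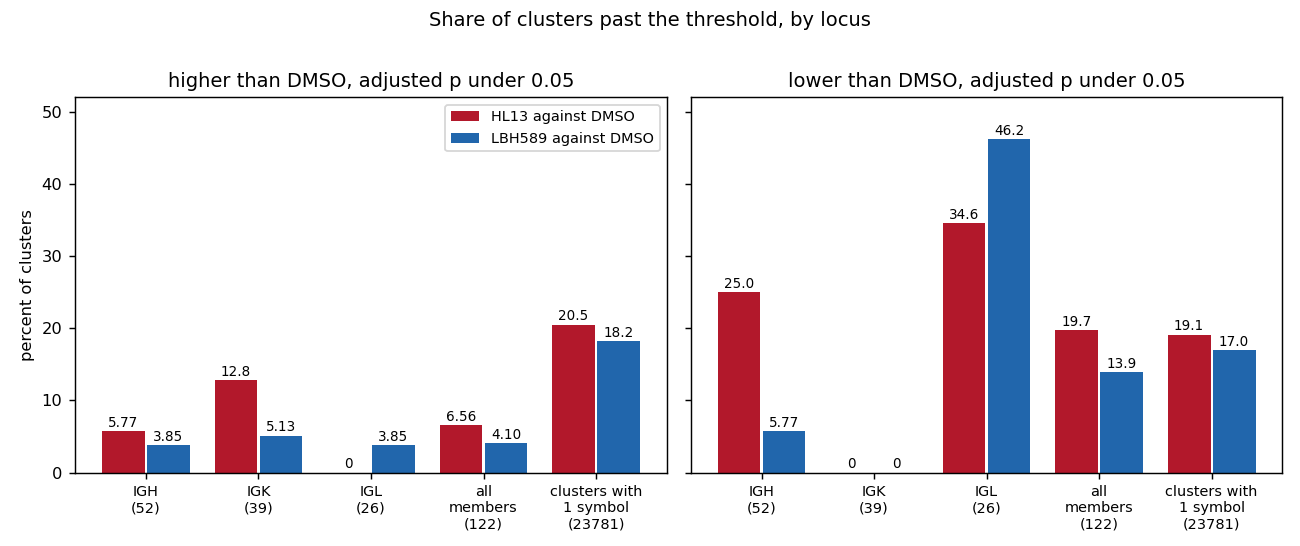
Percent of clusters past an adjusted p of 0.05 (y axis), higher (left panel) or lower (right panel) than DMSO, for HL13 (red bars) and LBH589 (blue bars), by locus, for all 122 members and for the 23781 clusters with 1 symbol. IGL has the tallest bars for falls, 34.6% and 46.2%, and IGK has none.

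Of the members, 68 lay above the array median on all 9 arrays (30 of IGH, 17 of IGK, 19 of IGL and the 2 assembly genes), and 37 lay above it on none. Among those 68, 26.5% fell after HL13 and 22.1% after LBH589, and among the 15810 single-symbol clusters above the median on all arrays the shares were 26.3% and 23.7%. Rises made up 4.41% of those 68 after HL13 and 7.35% after LBH589, against 25.1% and 23.7% of the 15810. Of the 37 members above the median on no array 3 fell and 2 rose after HL13, and 0 passed the threshold after LBH589 (limma, with 5 at an unadjusted p under 0.05). As a comparison with loci of the same kind that plasma cells do not use, 79 clusters of T cell receptor segments were counted. They held 1 fall (1.27%) and 4 rises (5.06%) after HL13, and 1 fall (1.27%) and 0 rises after LBH589. Only 24 of the 79 lay above the median on all 9 arrays and 40 on none. They were thus dimmer as a set than the members, and the counts do not separate brightness from the kind of locus.

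The lambda constant region and several lambda V segments were lower with both compounds. IGLC7, the lambda constant region with a cluster of its own, read 13.08, 12.95 and 13.04 on HL13 arrays, 13.02, 13.07 and 13.02 on LBH589 arrays, and 13.43, 13.38 and 13.36 on DMSO arrays. The treated arrays did not overlap the DMSO arrays, and the fall was small: -0.37 ± 0.04 after HL13 (1.29-fold lower, adjusted p = 0.000189) and -0.35 ± 0.04 after LBH589 (1.28-fold lower, adjusted p = 0.000293; log2 difference ± SE, n = 3 per group here and below). IGLV2-18, the lambda V cluster with the highest mean intensity, was at 13.05, 13.03 and 13.05 with HL13, 13.04, 13.00 and 13.08 with LBH589, and 13.33, 13.29 and 13.25 with DMSO. It fell by 0.25 on the log2 scale with both compounds (adjusted p = 0.00102 for HL13 and 0.00109 for LBH589). The highest value on an array was 14.56 to 14.60, so both clusters lay toward the upper end of the scale. Whether the size of a fall is understated there was not tested.

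A pair of lambda V segments that are neighbours among the members in the reference gene order showed falls of over 2-fold. IGLV3-27 stood at 5.52, 5.78 and 5.73 after HL13, 5.89, 5.91 and 5.90 after LBH589, and 6.98, 7.01 and 7.02 in DMSO. All treated arrays lay more than 1 log2 unit below all DMSO arrays, and the fall was 2.52-fold with HL13 (-1.33 ± 0.06, adjusted p = 5.88e-07) and 2.15-fold with LBH589 (-1.11 ± 0.06, adjusted p = 2.35e-06). IGLV3-25 gave 5.37, 5.05 and 5.31 after HL13, 5.01, 5.36 and 5.17 after LBH589, and 6.46, 6.40 and 6.34 in DMSO. Its DMSO arrays and 1 HL13 array lay above the array median, and the other treated arrays below it. The differences were -1.15 ± 0.10 for HL13 (adjusted p = 3.38e-05) and -1.22 ± 0.10 for LBH589 (adjusted p = 2.93e-05).

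Within the IGLV3 family, 5 of 8 members fell with each compound: IGLV3-1, IGLV3-9, IGLV3-16, IGLV3-25 and IGLV3-27. The other 3 were below DMSO without passing the threshold. Of clusters with 1 symbol, 19.1% fell after HL13 and 17.0% after LBH589. The shares were 26.3% and 23.7% where such clusters lay above the array median on all 9 arrays, as 7 of these 8 did. Because probes of near-identical V segments can bind RNA of several of them, the 5 falls may not be independent of each other. IGLV3-16 changed by -0.38 and -0.34, IGLV3-1 by -0.33 and -0.22 and IGLV3-9 by -0.25 and -0.27 after HL13 and LBH589. The IGLV3-9 calls were lost with HL13 when any of the 6 arrays compared was left out (adjusted p = 0.0625 to 0.0997) and with LBH589 for 5 of 6, and the LBH589 call of IGLV3-1 was lost without DMSO replicate 1 or 3. Outside that family, IGLV10-54 fell by 0.33 on the log2 scale with both compounds, and IGLV2-33 by 0.23 with HL13 and 0.20 with LBH589. The call for IGLV2-33 after LBH589 was lost after quantile normalization (-0.12, adjusted p = 0.0844). IGLV4-3 (-0.35), IGLV6-57 (-0.25) and IGLV9-49 (-0.24) passed the threshold with LBH589 and not with HL13 (-0.13, -0.06 and -0.17). The calls for IGLV6-57 and IGLV9-49 were lost when single arrays were left out.

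Of the 4 lambda J segments with a cluster of their own, 0 passed the threshold after HL13 (limma) and 1 after LBH589, as a rise. IGLJ6 read 6.77, 6.74 and 6.79 with HL13, 7.01, 6.95 and 7.00 with LBH589, and 6.71, 6.60 and 6.84 with DMSO. The LBH589 arrays lay above all others, a rise of 0.27 ± 0.06 (adjusted p = 0.0092), and HL13 arrays overlapped DMSO (0.05 ± 0.06, adjusted p = 0.623). IGLJ4, IGLJ5 and IGLJ7 did not pass the threshold with either compound, with log2 differences between -0.23 and 0.02. IGLJ5 (-0.23 after HL13) passed as a fall without DMSO replicate 2 (-0.40, adjusted p = 0.0213).

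**Figure D2:**
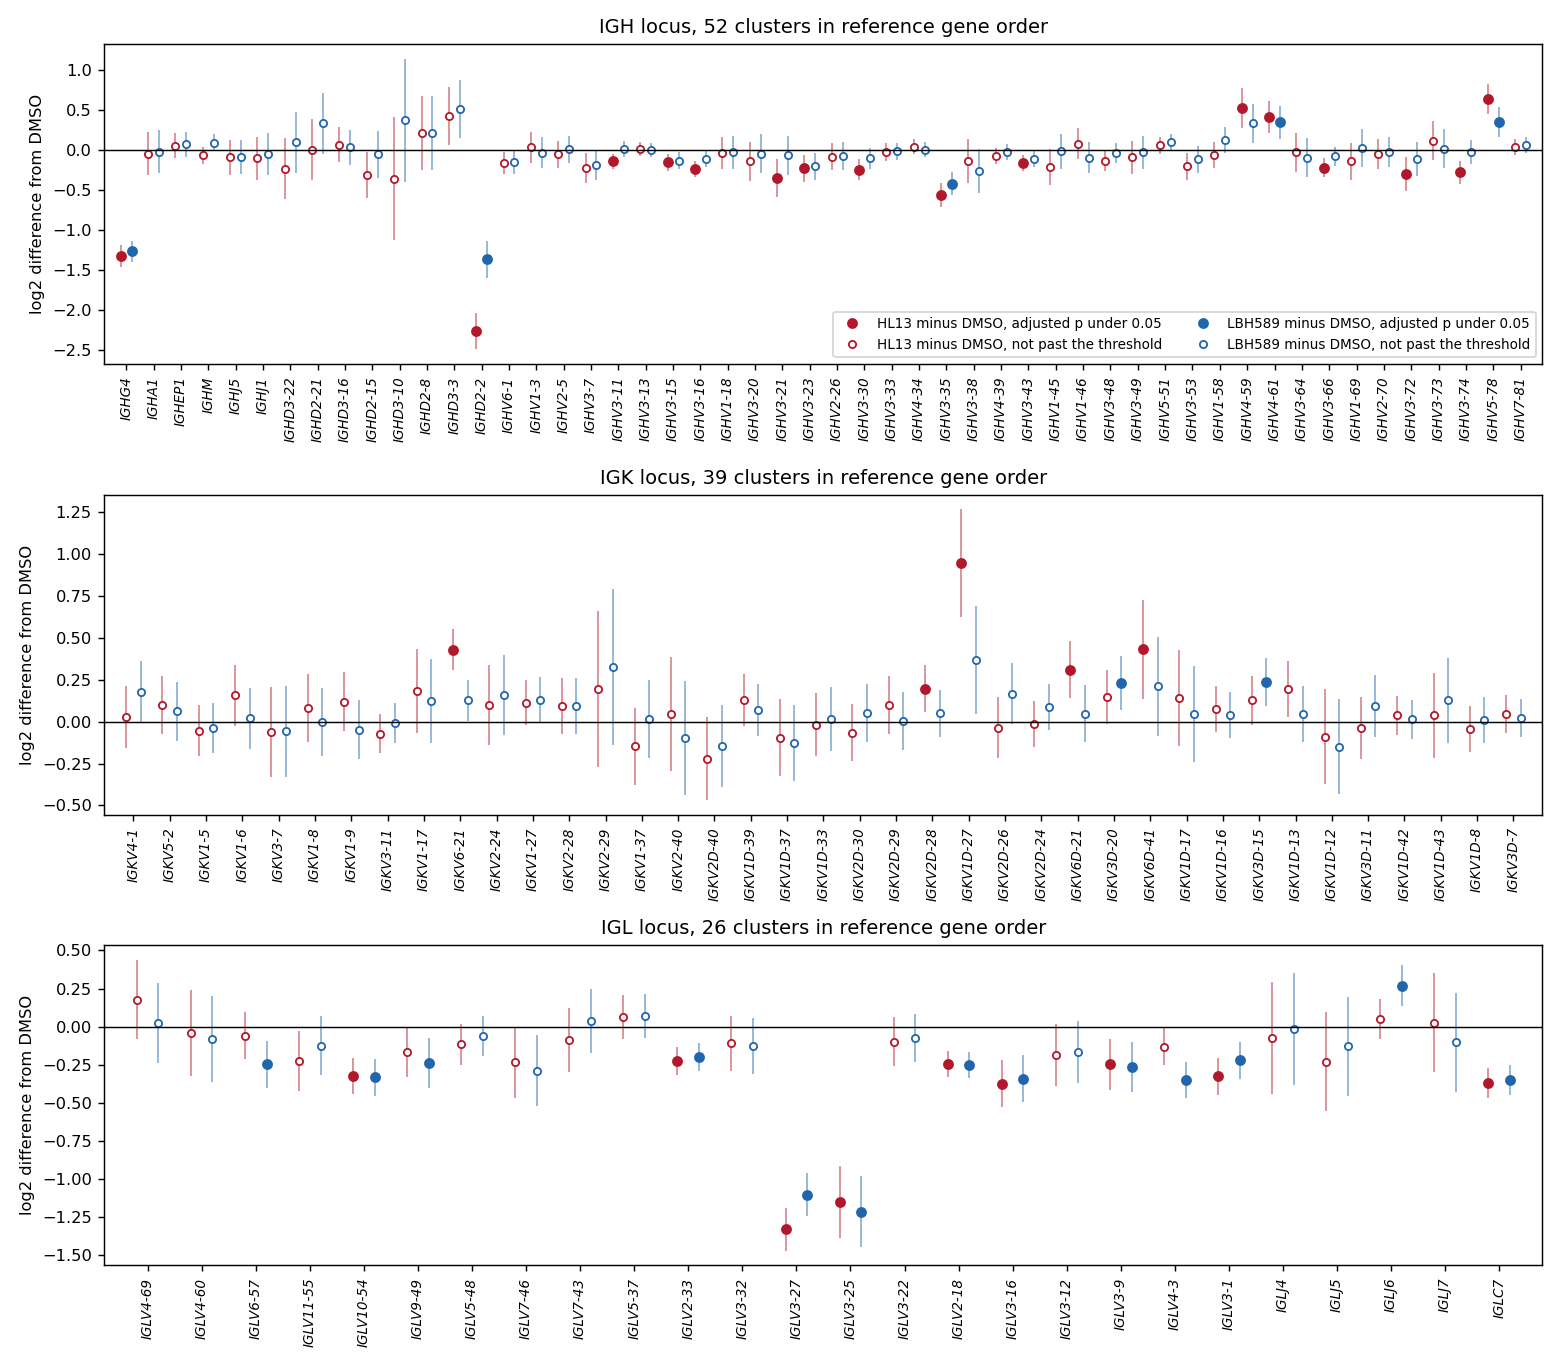
Log2 difference from DMSO (y axis) with its 95% confidence interval for every IGH, IGK and IGL member in reference gene order (x axis), for HL13 (red) and LBH589 (blue), with filled points past an adjusted p of 0.05. IGHG4 and IGHD2-2 in IGH and IGLV3-27 and IGLV3-25 in IGL lie below -1 with both compounds, and every IGK point past the threshold lies above 0.

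Among heavy chain constant regions, IGHG4, the constant region of IgG4, was the member that changed. It measured 6.10, 6.10 and 5.93 after HL13, 6.16, 6.11 and 6.04 after LBH589, and 7.39, 7.42 and 7.31 in DMSO. The groups did not overlap, and IGHG4 was 2.51-fold lower with HL13 (-1.33 ± 0.06, adjusted p = 4.66e-07) and 2.41-fold lower with LBH589 (-1.27 ± 0.06, adjusted p = 8.26e-07). IGHA1, the constant region of IgA1, averaged 6.58 ± 0.09 with HL13, 6.61 ± 0.26 with LBH589 and 6.63 ± 0.10 with DMSO (SD, n = 3 each), and its intervals spanned -0.32 to 0.22 and -0.30 to 0.25 around no difference. IGHM, the constant region of IgM, differed from DMSO by -0.07 after HL13 and 0.08 after LBH589 (adjusted p = 0.359 and 0.287). The pseudogene IGHEP1 differed by 0.05 and 0.07 and did not pass either. A further cluster carried 14 symbols, including IGHG1, IGHG2, IGHG3, IGHA2 and IGHE, and is no member. It fell by 0.27 with HL13 and 0.23 with LBH589 on the log2 scale (adjusted p = 0.00169 and 0.00464), and names no single gene. Whether RNA of other IgG constant regions also bound the IGHG4 probes was not tested.

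IGHD2-2, a heavy chain D segment, had the largest change of any member after HL13 and after LBH589. It read 4.36, 4.32 and 4.68 on HL13 arrays, 5.42, 5.25 and 5.39 on LBH589 arrays, and 6.61, 6.82 and 6.74 on DMSO arrays. The 3 groups were separate, with HL13 lowest. Against DMSO the difference was -2.27 ± 0.10 with HL13 (4.81-fold lower, adjusted p = 4.48e-07) and -1.37 ± 0.10 with LBH589 (2.58-fold lower, adjusted p = 1.19e-05). All HL13 arrays lay below their array medians (5.36 to 5.38), where the size of a fall may be understated. FAM30A, a noncoding gene next to IGHD2-2 in the reference gene order, differed from DMSO by -0.01 with HL13 and -0.03 with LBH589 (adjusted p = 0.867 and 0.772), and its arrays overlapped.

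The remaining 7 D segments did not pass the threshold. IGHD3-3, below the array median on all 9 arrays, came closest to a rise, at 0.42 ± 0.16 after HL13 (adjusted p = 0.0884) and 0.50 ± 0.16 after LBH589 (adjusted p = 0.0529). It passed with LBH589 under 5 alternatives, among them quantile normalization (adjusted p = 0.0486). IGHJ1 and IGHJ5, the heavy chain J segments with clusters of their own, differed from DMSO by -0.11 to -0.05 and did not pass. ADAM6, LINC00226, LINC00221 and RNA5SP389, genes that lie among the IGH segments without being part of them, did not pass with either compound.

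Of 38 heavy chain V segments, 11 fell and 3 rose after HL13, and 1 fell and 2 rose after LBH589. All 11 falls belonged to the IGHV3 family, the largest V family, in which 11 of 21 members fell (52.4%). Among clusters with 1 symbol 19.1% were lower after HL13, and 12.9% among all clusters. Because probes of near-identical V segments can bind RNA of several of them, these falls may not be independent of each other. IGHV3-35 was at 7.46, 7.39 and 7.40 with HL13, 7.51, 7.60 and 7.57 with LBH589, and 8.10, 7.84 and 8.02 with DMSO. It was lower on every treated array and was the IGHV3 member that also fell with LBH589 (-0.57 ± 0.07 with HL13, adjusted p = 0.000171; -0.42 ± 0.07 with LBH589, adjusted p = 0.00127). The other 10 had log2 differences between -0.15 and -0.36 after HL13, as with IGHV3-30 (-0.25 ± 0.06, adjusted p = 0.0128), IGHV3-16 (-0.24 ± 0.04, adjusted p = 0.003) and IGHV3-74 (-0.28 ± 0.06, adjusted p = 0.0101). With each compound 19 of 21 lay below DMSO, and the family median was -0.169 after HL13 and -0.099 after LBH589. Over all 70523 clusters, 37484 lay below DMSO after HL13 and 33764 after LBH589. The HL13 count depended on single arrays: it was 5 without DMSO replicate 3, 5 without HL13 replicate 1 and 4 without HL13 replicate 3, and 7 when HL13 and DMSO were fitted without LBH589.

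IGHV3-33, which had the highest mean intensity of the heavy chain V clusters, read 9.44 to 9.60 over all 9 arrays and did not pass, with log2 differences of -0.03 after HL13 and -0.02 after LBH589. Rises among heavy chain V segments were seen in other families. IGHV5-78, a pseudogene, reached 6.73, 6.54 and 6.72 with HL13 and 6.40, 6.23 and 6.49 with LBH589, against 6.07, 5.92 and 6.09 with DMSO. The groups did not overlap, at 0.64 ± 0.08 for HL13 (adjusted p = 0.000374) and 0.35 ± 0.08 for LBH589 (adjusted p = 0.0146). IGHV4-61 rose by 0.41 ± 0.09 with HL13 (adjusted p = 0.00878) and 0.34 ± 0.09 with LBH589 (adjusted p = 0.0246). IGHV4-59 rose by 0.52 ± 0.11 with HL13 (adjusted p = 0.00621), and with LBH589 differed by 0.33 ± 0.11 (adjusted p = 0.0651). The LBH589 calls of IGHV5-78 and IGHV4-61 were lost without LBH589 replicate 3 (adjusted p = 0.0523 and 0.0687). The IGHV5-78 call was also lost without DMSO replicate 2 (adjusted p = 0.0546). That of IGHV4-61 was also lost without DMSO replicate 3 (0.0724) or LBH589 replicate 1 (0.0805), and with the replicate block (0.0614).

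**Figure D3:**
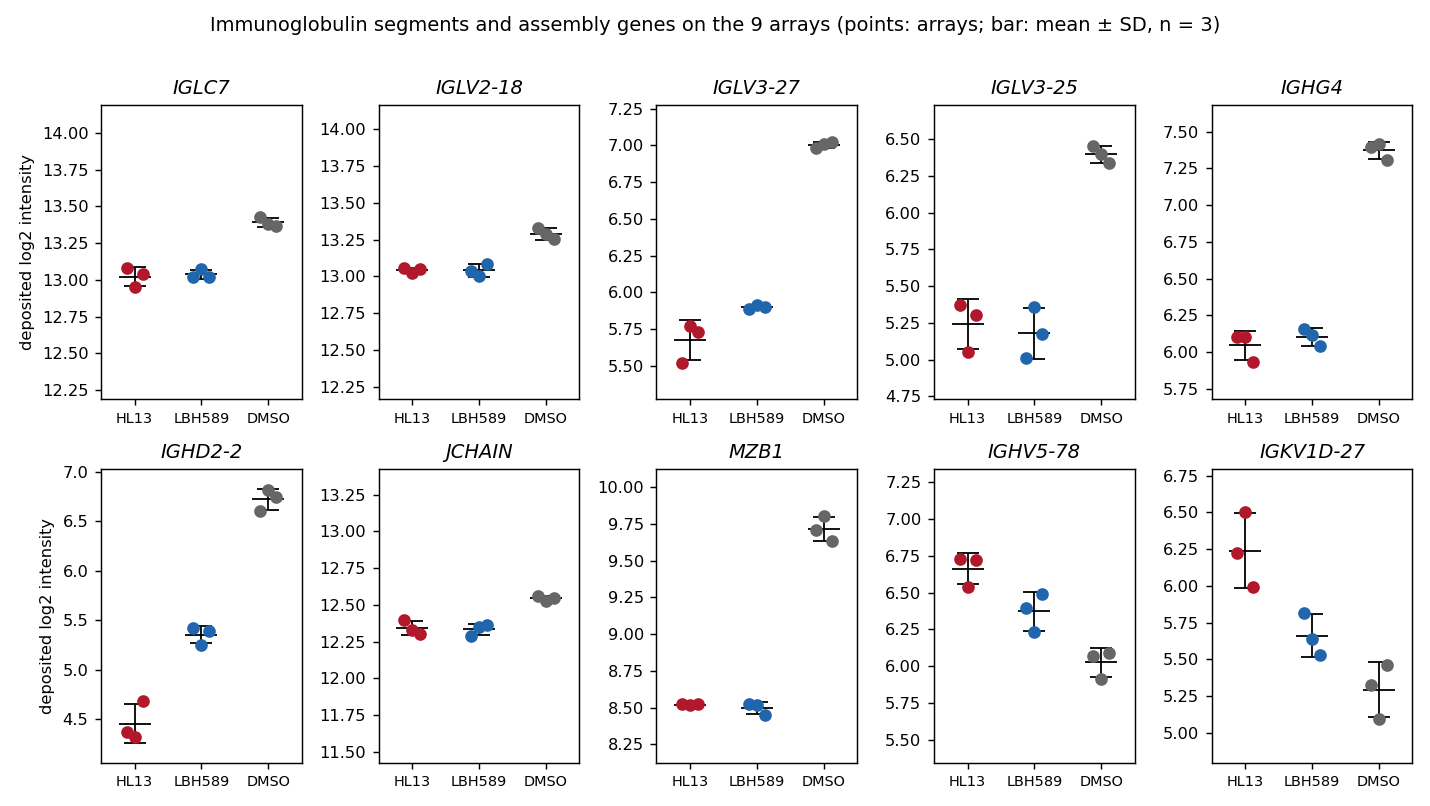
Deposited log2 intensity (y axis, 1 scale per panel) of 10 members on the 3 HL13, 3 LBH589 and 3 DMSO arrays. Points are arrays and bars the mean ± SD. For IGLC7, IGLV2-18, IGLV3-27, IGLV3-25, IGHG4, IGHD2-2, JCHAIN and MZB1 every treated array lies below every DMSO array, and for IGHV5-78 and IGKV1D-27 every treated array lies above.

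Kappa V segments, which belong to the light chain locus that lambda-producing plasma cells do not use, lay above the array median on all 9 arrays in 17 of 39 cases and on no array in 16. The changes after HL13 ran from -0.22 to 0.95 and those after LBH589 from -0.15 to 0.37. IGKV1D-27, a pseudogene, had the largest rise of any member: 6.23, 6.50 and 5.99 with HL13, and 5.82, 5.64 and 5.53 with LBH589, against 5.32, 5.09 and 5.46 with DMSO. The HL13 arrays were above all others, by 0.95 ± 0.14 over DMSO (1.93-fold, adjusted p = 0.000918), and the LBH589 difference did not pass (0.37 ± 0.14, adjusted p = 0.11). The 3 members of the IGKV6 family all rose with HL13, where 20.5% of clusters with 1 symbol and 13.7% of all clusters were higher. Probes of near-identical V segments can bind RNA of several of them, so these 3 rises may not be independent of each other. IGKV6-21 changed by 0.43 ± 0.05 (adjusted p = 0.000303), IGKV6D-21 by 0.31 ± 0.07 (adjusted p = 0.013) and IGKV6D-41 by 0.43 ± 0.13 (adjusted p = 0.0373). IGKV6-21 and IGKV6D-21 lay below the array median on all 9 arrays, and the calls were lost for IGKV6D-41 when any of 4 arrays was left out and for IGKV6D-21 without HL13 replicate 3 (adjusted p = 0.051). IGKV2D-28 rose by 0.20 with HL13, and IGKV3D-15 (0.24) and IGKV3D-20 (0.23) passed with LBH589, IGKV3D-20 with overlapping arrays. The IGKV2D-28 call was lost when any of the 6 arrays compared was left out. The IGKV3D-15 call was lost without DMSO replicate 2 or 3 or LBH589 replicate 1 (adjusted p = 0.0703 to 0.0915), and the IGKV3D-20 call when any of 4 arrays was left out (adjusted p = 0.12 to 0.152). The 6 kappa segments with the highest mean intensity, IGKV1-37, IGKV1D-16, IGKV1D-37, IGKV1D-42, IGKV1-6 and IGKV1-17, did not pass with either compound. The cluster that carries IGKC with 13 further kappa symbols read 5.97 to 6.04 on all arrays and did not pass (adjusted p = 0.95 and 0.816).

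The assembly genes both fell. MZB1 was at 8.52 on all 3 HL13 arrays and at 8.52, 8.52 and 8.45 on LBH589 arrays, against 9.71, 9.80 and 9.63 on DMSO arrays. The treated arrays lay about 1.2 log2 units below the DMSO arrays: -1.19 ± 0.05 with HL13 (2.29-fold lower, adjusted p = 2.39e-07) and -1.22 ± 0.05 with LBH589 (2.33-fold lower, adjusted p = 2.99e-07). Exactly equal values on different arrays, as in MZB1, occurred in 14 of the 122 members and in 20613 of all clusters. No source used here says what produced them, and such ties lower the spread within a group. JCHAIN was at 12.40, 12.33 and 12.30 with HL13, 12.29, 12.35 and 12.36 with LBH589, and 12.56, 12.53 and 12.54 with DMSO. Its fall was 1.15-fold with HL13 (-0.20 ± 0.04, adjusted p = 0.0042) and 1.16-fold with LBH589 (-0.21 ± 0.04, adjusted p = 0.00363). After quantile normalization the JCHAIN difference shrank to -0.13 with HL13 (adjusted p = 0.0366) and to -0.11 with LBH589, which no longer passed (adjusted p = 0.0804).

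JCHAIN and MZB1 were the members with an entry in the RefSeq promoter table (GRCh38.p14), and their promoters are shown because both genes fell with both compounds. Each sequence runs from 250 bases before the transcription start to 50 bases after it. They were searched on both strands for the octamer ATGCAAAT (reverse complement ATTTGCAT), the letters bound by POU2F factors with their coactivator POU2AF1 in immunoglobulin V promoters, and, a choice made after the sequences were seen, for CACGTG. The octamer was in neither and in 1.77% of 35116 promoters of this length. CACGTG, in capitals, was in the MZB1 promoter, 117 bases before the start, and in 7.26% of all promoters.
JCHAIN (chr4:70666459-70666758, minus strand): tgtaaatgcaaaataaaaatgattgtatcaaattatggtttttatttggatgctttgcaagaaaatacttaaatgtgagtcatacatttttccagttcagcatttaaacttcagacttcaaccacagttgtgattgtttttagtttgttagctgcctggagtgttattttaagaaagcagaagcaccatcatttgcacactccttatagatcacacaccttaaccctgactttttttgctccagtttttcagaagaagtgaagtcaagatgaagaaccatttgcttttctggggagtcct
MZB1 (chr5:139389864-139390163, minus strand): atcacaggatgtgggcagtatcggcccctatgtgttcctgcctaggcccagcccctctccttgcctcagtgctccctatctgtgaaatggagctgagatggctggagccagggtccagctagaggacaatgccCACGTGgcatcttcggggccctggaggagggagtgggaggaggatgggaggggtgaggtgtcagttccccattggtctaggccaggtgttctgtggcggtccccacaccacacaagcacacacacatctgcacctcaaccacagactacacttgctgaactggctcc
A match of letters is a description of these windows only.

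HL13 and LBH589 were compared directly at the same dose and time in all 122 members. Only 3 were higher with HL13 than with LBH589 and 2 lower at an adjusted p of 0.05, where 4.85% of all clusters were higher and 4.32% lower, and 8.50% and 8.17% of clusters with 1 symbol. The 3 were IGKV1D-27 (0.58 ± 0.14, adjusted p = 0.0383), IGKV6-21 (0.30 ± 0.05, adjusted p = 0.00877) and IGLV4-3 (0.22 ± 0.05, adjusted p = 0.0344). The 2 were IGHD2-2 (-0.90 ± 0.10, 1.86-fold lower with HL13, adjusted p = 0.000817) and IGHV3-74 (-0.26 ± 0.06, adjusted p = 0.0422). In IGKV1D-27, IGKV6-21 and IGHD2-2 the LBH589 mean lay between the HL13 and DMSO means. The calls for IGHD2-2 and IGKV6-21 held in every alternative run for them, and those for IGKV1D-27, IGHV3-74 and IGLV4-3 were each lost under several.

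Of the 14 members that fell with both compounds, 13 did not differ between them at an adjusted p of 0.05. The intervals for HL13 minus LBH589 were -0.11 to 0.08 for IGLC7, -0.08 to 0.09 for IGLV2-18, -0.19 to 0.08 for IGHG4, -0.08 to 0.13 for MZB1 and -0.08 to 0.10 for JCHAIN. For IGLV3-25 the interval was wider, -0.17 to 0.30. For IGLV3-27 it was -0.37 to -0.09, lower with HL13, and did not pass after adjustment (adjusted p = 0.0586). IGLV3-27 did pass after quantile normalization (0.0411), among clusters with 1 symbol only (0.021), with the filter on dim clusters (0.0283) and without HL13 replicate 2 (0.0422). Outside these 14, IGLJ6 (-0.22) did not pass as reported. It passed as lower with HL13 under several alternatives, among them quantile normalization (adjusted p = 0.0274) and median centring (0.0436). With only clusters with 1 symbol, IGHM (limma, adjusted p = 0.0292) and IGHV3-16 (0.0439) also passed as lower with HL13. IGHV5-78 (0.0279) and IGKV6D-21 (0.026) passed there as higher. Except for IGHV3-16, these passed under further alternatives too. Of the 117 members that did not pass, 110 had a 95% interval within 0.5 of 0 and 50 within 0.25, so smaller differences between the compounds could not be detected in most.

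**Figure D4:**
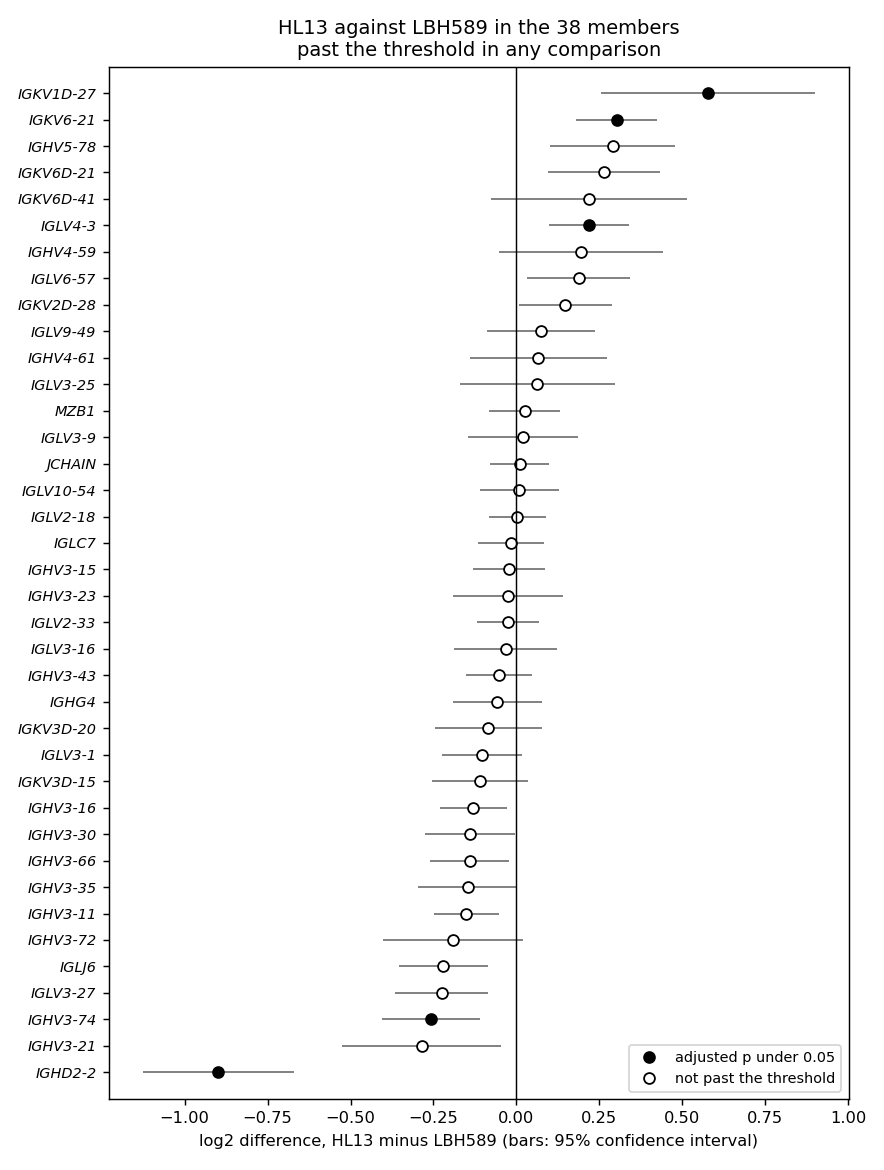
Log2 difference of HL13 minus LBH589 (x axis) with its 95% confidence interval for the 38 members that passed the threshold in any of the 3 comparisons. Filled points passed an adjusted p of 0.05 in this comparison: IGKV1D-27, IGKV6-21 and IGLV4-3 to the right, IGHV3-74 and IGHD2-2 to the left.

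Transcription factors that act on the immunoglobulin loci changed in both directions. Of 27 measured transcription factors of immunoglobulin genes, 12 fell and 9 rose after HL13, and 13 fell and 8 rose after LBH589. These are 44.4% lower and 33.3% higher with HL13 and 48.1% and 29.6% with LBH589, against 19.1% and 20.5%, and 17.0% and 18.2%, of clusters with 1 symbol, and the list medians were -0.089 and -0.061. POU2AF1, the B cell coactivator of octamer factors, gave 7.55, 7.58 and 7.63 with HL13, 7.77, 7.67 and 7.78 with LBH589, and 10.09, 9.95 and 9.75 with DMSO. It was 5.08-fold lower with HL13 and 4.55-fold lower with LBH589 (adjusted p = 1.11e-07 and 2.27e-07). XBP1, which drives the secretory programme of plasma cells, changed by -1.68 and -1.70, PRDM1, the plasma cell repressor BLIMP1, by -1.92 and -1.45, IKZF1 by -1.89 and -1.68, and IKZF3 by -1.81 and -1.41 with HL13 and LBH589. BCL6, a repressor that maintains the germinal centre B cell state and opposes PRDM1, rose by 1.80 and 1.61. The part of these genes in the changes of the segments was not tested.

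In the list of 36 genes for folding of heavy and light chains in the ER, 20 fell and 2 rose after HL13, and 24 fell and 5 rose after LBH589. That is 55.6% lower and 5.56% higher with HL13 and 66.7% and 13.9% with LBH589, with list medians of -0.22 and -0.20. All 36 lay above the array median on all 9 arrays. Of the 15810 single-symbol clusters that bright, 26.3% fell and 25.1% rose after HL13. After LBH589, 23.7% of them fell and 23.7% rose. TXNDC11 and TXNDC5, disulfide isomerase family members, changed by -1.08 and -1.06 with HL13 and by -0.94 and -1.02 with LBH589. EDEM1, which sends misfolded glycoproteins to degradation, changed by -0.96 and -0.83. ERO1B and ERP44, which form disulfide bonds and retain unassembled chains, rose by 1.23 and 0.69 with HL13 and by 1.36 and 0.86 with LBH589. Of 16 genes for receptor partners, surrogate light chain, recombination and class switching, 5 fell after HL13 and 6 after LBH589, and 0 rose with either (limma), or 31.2% and 37.5% lower, with list medians of -0.016 and -0.012. Of these, 12 lay above the array median on all 9 arrays, where 26.3% and 23.7% of single-symbol clusters fell. The share of falls after HL13 was thus near that background, and the share after LBH589 above it. FCMR, the receptor for IgM, was 4.79-fold lower with HL13 and 5.68-fold lower with LBH589 (adjusted p = 3.43e-08 and 3.12e-08). CD79B, a signalling chain of the B cell receptor, fell by 0.49 and 0.42 on the log2 scale, and its partner CD79A did not pass (-0.04 and -0.03).

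**Figure D5:**
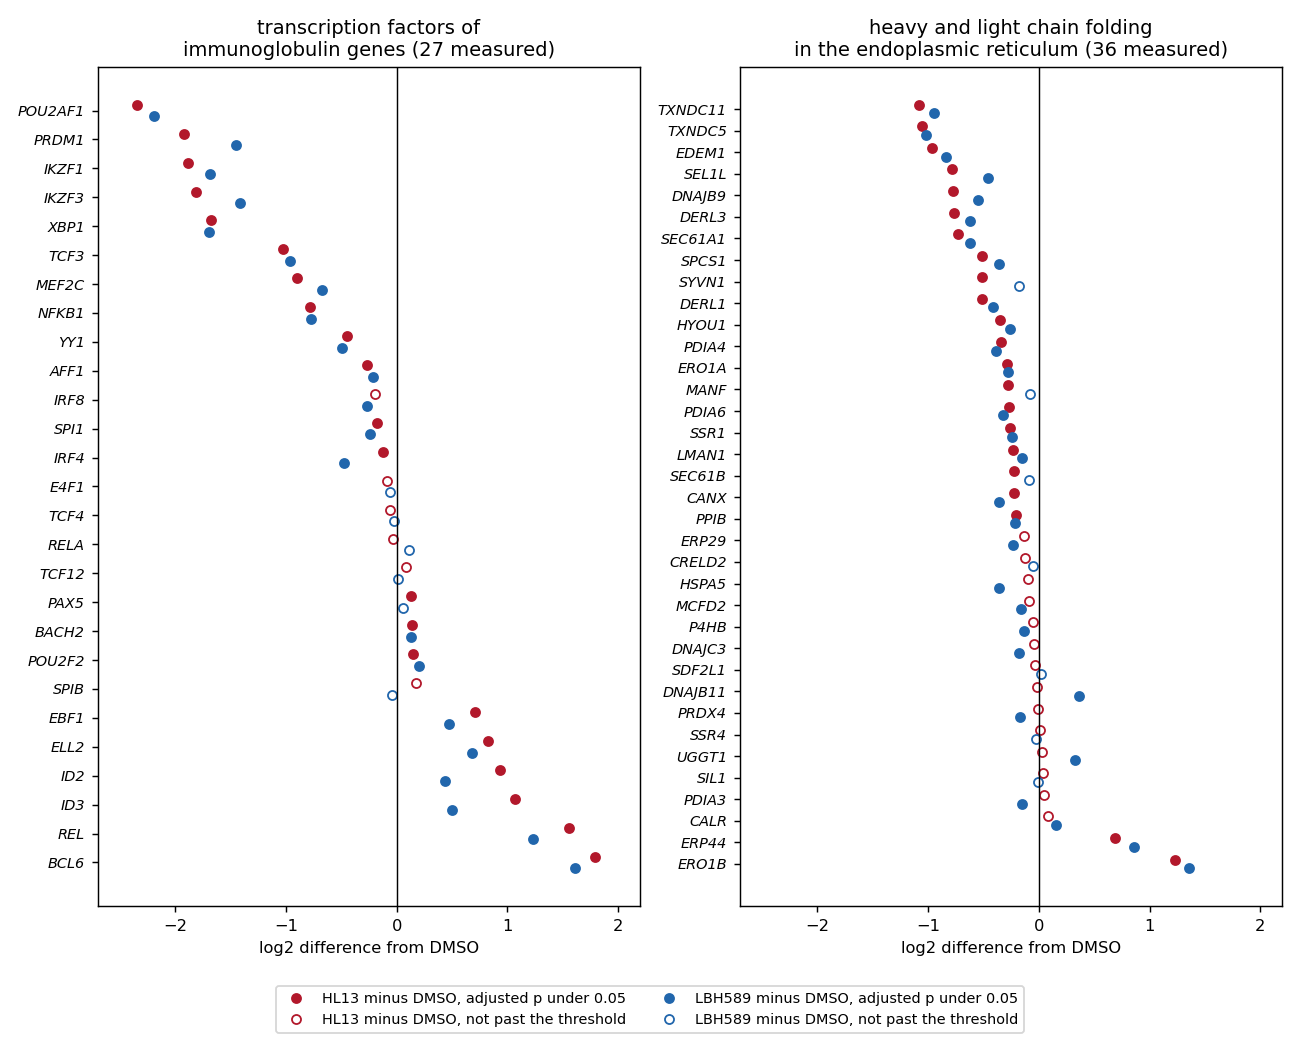
Log2 difference from DMSO (x axis) of the 27 measured transcription factors of immunoglobulin genes (left) and the 36 measured genes for heavy and light chain folding in the ER (right), for HL13 (red) and LBH589 (blue), with filled points past an adjusted p of 0.05. POU2AF1, PRDM1, IKZF1, IKZF3 and XBP1 lie furthest to the left, BCL6 and REL furthest to the right.

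Of 8 measured genes placed among the lambda segments without being part of them, 3 rose (37.5%) and 1 fell (12.5%) after HL13. After LBH589, 1 rose and 1 fell (12.5% each). Of clusters with 1 symbol, 20.5% rose and 19.1% fell after HL13, and 18.2% and 17.0% after LBH589. Some of the 8 are given here. PRAME, a tumour antigen gene, rose by 0.69 with HL13 (adjusted p = 1.01e-06) and differed by 0.08 with LBH589 (adjusted p = 0.155). ZNF280B rose by 0.44 with HL13 and 0.67 with LBH589. GGTLC2 fell by 0.31 and 0.29, and VPREB1, part of the surrogate light chain, did not pass (0.03 and -0.01).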

How the data were processed

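The values, as the authors deposited them, are log2 intensities, 1 for each transcript cluster on each array (Affymetrix Human Transcriptome array, biotin-labelled total RNA). How the probes were summarised and normalized, and the genome build, are not given in the sources used here, and the study's methods describe RNA sequencing rather than arrays. The log base was taken from the range of values, 1.72 to 14.60. The deposited values were used unchanged. Their medians nearly coincide, and a step that equalises arrays would hide a shift common to the majority of genes. Whether such a step was applied before deposit is not known, so a shift of that kind may already be hidden. Precision is limited by having 3 arrays per group.

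The 3 groups were fitted jointly, with group means as coefficients, by lmFit and eBayes in limma 3.58.1 (R 4.3.3, two-sided tests), with Benjamini-Hochberg adjustment over 70523 clusters and a threshold of 0.05, for each compound against DMSO and for HL13 against LBH589. The fitting step was tested on simulated data. The members and gene lists were chosen with earlier results of these data known. Named by rule were every C, D and J member, JCHAIN and MZB1, the 6 V members per locus with the highest mean, and up to 6 rises and 6 falls per comparison that passed the threshold without overlap. IGLV3-1, IGLV3-9, IGLV3-16, IGKV6D-21, IGKV2D-28, IGKV3D-20, CD79A, FAM30A and the genes among the IGH and IGL segments were named after their values were seen. All 122 symbols were found in a RefSeq gene table (GRCh38.p14), which served for names, gene types and gene order only. Alternatives were quantile normalization, median centring, only clusters with 1 symbol, a filter on dim clusters, a variance trend, only the 2 groups compared, a replicate block and leaving out each array.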

Additional observations from a re-analysis of the deposited data

How the results depend on the processing

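Across 56 named members and 3 comparisons, 2045 alternative values stayed on their side of the threshold, 82 lost the call and 39 gained one. Of the 2045, 1938 kept their sign and 107 changed it, all of them differences that did not pass in either setting, and no called difference changed sign. The falls of IGHD2-2, IGHG4, IGLV3-27, IGLV3-25, MZB1, IGLC7 and IGLV2-18 passed under every alternative with both compounds. Quantile normalization ended the LBH589 calls of JCHAIN (-0.11) and IGLV2-33 (-0.12). The count of IGL members lower stayed between 8 and 11 after HL13 and between 9 and 13 after LBH589, and that of IGHV3 members lower after HL13 ran from 4 (without HL13 replicate 3) to 13. Median centring moved the median of all members after HL13 to -0.094, against -0.065. Without LBH589 replicate 3 the median after LBH589 was 0.012, and leaving out each array in turn gave -0.045 to 0.012.

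Members higher after LBH589, 5 as reported, numbered 3 with the replicate block and 2 to 4 with single arrays left out. Members higher with HL13 than with LBH589, 3 as reported, numbered 5 among clusters with 1 symbol only and 1 to 2 with single arrays left out. Members lower with HL13 than with LBH589, 2 as reported, numbered 6 after quantile normalization, 7 among clusters with 1 symbol only, 6 with the filter on dim clusters (which tests fewer clusters), 1 with the replicate block and 1 to 2 with single arrays left out. Why these counts moved was not tested. Arrays with the same replicate number did not deviate together (correlations -0.122 to 0.005), so the numbers were not taken as pairs; with the replicate block 21 members fell and 6 rose after HL13, and 17 fell after LBH589. With 3 arrays per group, and no background or detection values used, changes in clusters below the array median are the least certain.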
